A study of Homo sapiens with 4 samples.

Results

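The interferon regulatory factors described here are 8 genes, IRF1, IRF2, IRF3, IRF4, IRF5, IRF7, IRF8 and IRF9, found by symbol among the 60662 entries of the deposited count table. All 8 passed the filter on low counts, as did 16451 genes in all. They were measured by RNA sequencing in U937, a human histiocytic lymphoma line of the myeloid lineage that is used as a model of monocyte differentiation. The control group held 2 untreated libraries. The treated group held 2 libraries from cells kept for 72 h in phorbol 12-myristate 13-acetate (PMA) at 10 nM, an ester known to switch on protein kinase C. Each of 2 lots of cells gave 1 untreated and 1 PMA library, so every gene was compared both over all 4 libraries and within each lot. U937 is a transformed line, and its PMA-treated cells are a model of macrophages and not primary macrophages.

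Interferon regulatory factors are transcription factors that share an N-terminal DNA-binding domain with conserved tryptophans and read GAAA repeats in DNA. IRF3, IRF5 and IRF7 rest in the cytoplasm and are activated by phosphorylation when nucleic acid sensors or Toll-like receptors signal, and IRF3 and IRF7 then switch on the interferon genes. IRF9 works with STAT2 in the ISGF3 complex, which carries the signal of the type I interferon receptor to its targets. IRF1 activates and IRF2 mostly represses an overlapping set of genes, whereas IRF4 and IRF8 belong to haematopoietic cells and bind DNA together with PU.1 or BATF partners. In myeloid progenitors IRF8 is known for directing cells towards the monocyte and dendritic cell fates.

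Libraries held 35739833 to 54915928 counts. Levels are normalised CPM, the count as a share of the TMM-scaled library size, and are given for each library or as mean ± SD with n = 2 per group. The mitochondrial share of counts was 2.81% to 3.66% in lot 1 and 5.99% to 8.58% in lot 2. All 8 markers of the myeloid lineage were detected in both groups, with a summed level of 1310 and 2021 CPM without PMA and 3910 and 3644 CPM with it. ANPEP was the largest part with PMA, going from 515 and 425 CPM to 2898 and 2636 CPM. FUT4 fell from 60.5 and 58.0 CPM to 16.65 and 14.35 CPM, and LYZ went from 136 and 904 CPM to 210 and 125.5 CPM. The summed level of 8 monocyte and macrophage markers was 75.9 and 121 CPM without PMA and 3948 and 3976 CPM with it, and MRC1 was at 0 in all 4 libraries. ITGAX was the largest part with PMA, at 1907 and 2703 CPM, while MARCO fell from 7.38 and 8.22 CPM to 3.28 and 0 CPM. Markers of other cells that use IRF4 or IRF8 were low. The 5 plasma cell markers summed to at most 2.50 CPM, with JCHAIN, SDC1 and TNFRSF17 at 0 throughout. The 6 plasmacytoid dendritic cell markers summed to 19.56 and 7.06 CPM without PMA and to 22.32 and 31.3 CPM with it, with CLEC4C and TCL1A at 0 throughout. IL3RA went from 2.229 and 3.196 CPM to 7.757 and 7.5 CPM. GZMB, at 0 without PMA, was detected in both PMA libraries, at up to 9.899 CPM. TCF4 differed in direction between lots, from 17.25 and 3.868 CPM to 10.33 and 13.83 CPM. The 7 conventional dendritic cell markers summed to 3.42 and 5.84 CPM without PMA and to 18.2 and 31.3 CPM with it. Of these, CLEC9A and FCER1A were at 0 throughout. CLEC10A and XCR1, at 0 without PMA, reached 8.52 and 17.5 CPM and 3.53 and 5.40 CPM with it. FLT3 went the other way, from 1.77 and 0 CPM to 0 in both PMA libraries. The 7 B cell markers summed to 11.3 to 26.8 CPM, with MS4A1, CR2 and BLK at 0 throughout. PAX5 was at 19.5 and 7.53 CPM without PMA and 6.53 and 4.58 CPM with it, and CD79A at 1.68 and 2.41 CPM and 2.51 and 6.87 CPM. Of the 8 T cell markers, 6 were at 0 throughout, and TRAC reached 7.33 and 26.3 CPM with PMA. The part of these markers in the results below was not tested. Since bulk RNA was measured, fewer cells of a type and less RNA per cell cannot be told apart.

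The 8 genes did not move together. IRF7 rose and IRF8 fell with PMA, IRF9 had a high fitted change that missed the threshold, IRF5 and IRF3 had fitted changes near 0, and IRF1, IRF2 and IRF4 had positive ones with adjusted p-values of 0.353 to 0.717. The edgeR quasi-likelihood test was run over all 16451 genes, with Benjamini-Hochberg adjusted p-values, and 1 member was higher (background 4.29% of tested genes) and 1 was lower (background 2.02%), so 2 of 8 were called against 6.30% of all tested genes. The median log2 fold change of the 8 was 0.74, against 0.00 for all tested genes. The authors' deposited table called 3 of the 8 (background 5.00% of the genes above 0 in any library), namely IRF7 and IRF9 as higher (background 3.33%) and IRF8 as lower (background 1.67%). DESeq2 also called 3 (background 23.6%), of which 2 were higher (background 13.2%) and 1 lower (background 10.4%). With the lot as a block in edgeR 2 were called (background 5.08%), 1 higher (background 3.59%) and 1 lower (background 1.48%). Without untreated replicate 1 or 2 the members called higher were 2, while 1830 and 903 genes were called higher in all. Without PMA replicate 1 or 2 the members called lower were 0, while 277 and 79 genes were called lower in all. In 6 of 8 members the untreated and PMA libraries did not overlap, 5 with higher and 1 with lower PMA levels, but this also held for 60.4% of all tested genes (31.0% higher and 29.4% lower). An exact permutation over 2 against 2 libraries cannot give a two-sided p below 0.333, so no single gene was tested that way.

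**Figure D1:**
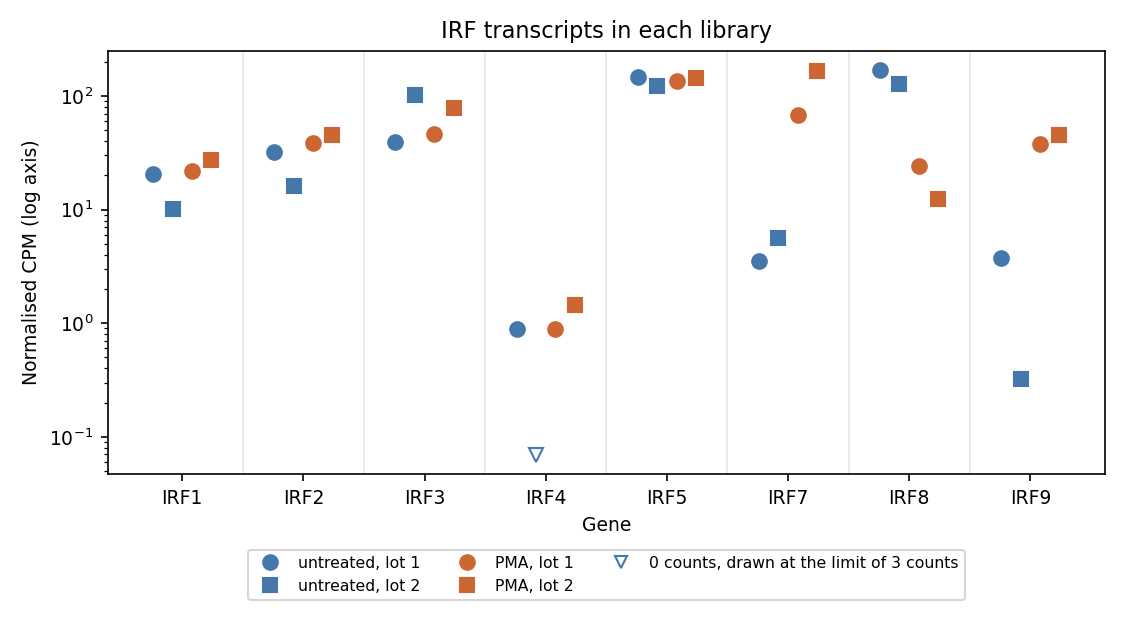
Normalised CPM (log axis) of the 8 IRF genes in each of the 4 libraries, with circles for lot 1, squares for lot 2, blue for untreated and orange for PMA. The open triangle marks IRF4 in untreated lot 2, which had 0 counts and is drawn at the limit of 3 counts. IRF7 and IRF9 sit higher with PMA and IRF8 lower, while the IRF5 points lie between 121.7 and 147.6 CPM.

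IRF7, the amplifier of the type I interferon response, was at 3.56 CPM in untreated lot 1 and 5.61 CPM in untreated lot 2, and it reached 68.7 and 165 CPM in the matching PMA libraries (ENSG00000185507.21). Both PMA libraries were far above both untreated ones, and within each group lot 2 was the higher. The gene rose by a log2 fold change of 4.67 ± 0.63 (standard error), and its adjusted p was 0.0282. Within lot 1 the ratio of PMA to untreated was 19.3, with a 95% interval of 16.8 to 22.2, and within lot 2 it was 29.5, with an interval of 25.9 to 33.6. These intervals are exact binomial ones and cover counting error only, and the lots differed by more than that. The authors' deposited table gives a log2 ratio of 4.67 and a q-value of 1.14e-05 for IRF7. No alternative ended the call, with adjusted p-values from 1.95e-13 to 0.0381. Of the genes beside it, PHRF1, on the opposite strand, had 9.41 and 10.0 CPM without PMA and 11.7 and 20.8 CPM with it (adjusted p = 0.417), and CDHR5 was at 0 in every library.

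IRF3, the ubiquitous partner of IRF7 in interferon gene activation, had 39.1 and 103 CPM without PMA and 46.2 and 78.8 CPM with it (ENSG00000126456.16). The groups overlapped, and lot 2 exceeded lot 1 in both groups, by 2.63-fold without PMA and 1.70-fold with it. The fitted log2 fold change was −0.18 ± 0.58 (adjusted p = 0.880). Its direction differed between lots, with a ratio of PMA to untreated of 1.18 in lot 1 and 0.765 in lot 2. The fitted change was 0.68 without untreated replicate 2 and 0.08 without PMA replicate 1, neither past the threshold. In GENCODE release 29, which may not be the authors' annotation, 19.4% of the exonic bases of IRF3 lie within exons of BCL2L12 on the opposite strand. Whether the counting used strand is not stated, so reads there cannot be assigned with certainty. BCL2L12 had 24.7 and 53.7 CPM in untreated lots 1 and 2 and 16.65 and 19.3 CPM in PMA lots 1 and 2 (edgeR adjusted p = 0.237). Its part in the IRF3 values was not tested.

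IRF7 and IRF3 exchanged places in abundance by count. There were 0.0910 (lot 1) and 0.0545 (lot 2) IRF7 counts per IRF3 count without PMA, and 1.49 and 2.1 with it. The counting intervals of the PMA ratios, 1.39 to 1.59 and 2.02 to 2.18, lay above those of the untreated ratios, 0.0791 to 0.104 and 0.0477 to 0.0620.

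IRF5, which acts downstream of MYD88 in macrophages and drives inflammatory cytokine genes, had the fitted change closest to 0 of the 8 members. It had 148 and 122 CPM without PMA and 135 and 144 CPM with it (ENSG00000128604.20), and the 2 PMA values lay between the untreated ones. The fitted log2 fold change was 0.05 ± 0.30 (adjusted p = 0.934). The ratio of PMA to untreated was 0.916 in lot 1 and 1.18 in lot 2. The sign of so small a change depended on the scaling: it was −0.11 with upper-quartile factors.

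The RefSeq promoter table held windows for 5 of the 8 genes, IRF1, IRF4, IRF5, IRF8 and IRF9, which have 9 windows in all. Each window runs from 250 bases before to 50 bases after a transcription start (GRCh38.p14). They were searched on both strands for letters read by IRF, STAT and related factors, and the stretches that hold a match for the STAT and PU.1-IRF letters are shown because IRF1, IRF9 and IRF5 belong to those circuits. The STAT letters (GAS, TTCNNNGAA) occurred in 7.66% of all 35116 windows and in those of IRF1 and IRF9. The PU.1-IRF composite letters (GGAA and GAAA with 2 bases of any kind between them) occurred in 2.82% of all windows and in 1 of 4 windows of IRF5, and capitals mark each match.
IRF1, chr5:132490864-132490922, minus strand, GAS match beginning 124 bases before the start: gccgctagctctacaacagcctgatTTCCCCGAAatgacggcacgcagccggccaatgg
IRF9, chr14:24161177-24161235, plus strand, GAS match beginning 63 bases before the start: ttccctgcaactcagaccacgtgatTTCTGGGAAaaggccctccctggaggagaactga
IRF5, chr7:128940612-128940669, plus strand, composite match read on the other strand: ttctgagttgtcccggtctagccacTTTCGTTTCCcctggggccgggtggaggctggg
The core letters of the interferon-stimulated response element (a pair of GAAA with 2 bases of any kind between them, in 3.57% of all windows) and of AP-1 (TGANTCA, in 7.71%) were in none of the 9 windows. IRF1 also held letters of NF-kB (in 11.3% of all windows) in the stretch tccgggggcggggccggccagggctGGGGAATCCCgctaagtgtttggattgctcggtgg, chr5:132490789-132490848, and both IRF1 and IRF5 held letters of EGR factors (GCGNGGGCG, in 9.43%). These matches are descriptions of letters, and no binding was measured.

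IRF9, the DNA-binding subunit of ISGF3, had 237 counts in untreated lot 1 and 14 in untreated lot 2, which are 3.75 and 0.324 CPM, and its level with PMA was 37.9 and 45.5 CPM (ENSG00000213928.9). Both PMA libraries were high and close to each other, while the untreated ones differed 11.6-fold. The log2 fold change was 4.34 ± 1.19, and the adjusted p of 0.0912 did not pass the threshold. The ratio of PMA to untreated was 10.1 in lot 1 (counting interval 8.80 to 11.7) and 140 in lot 2 (83.4 to 257). IRF9 passed with DESeq2 (adjusted p = 9.47e-05), with limma-voom (0.0340) and in the authors' deposited table (q-value 0.0343), and its adjusted p was 0.0127 without untreated replicate 1 and 0.0240 without untreated replicate 2.

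A neighbouring entry bears on the IRF9 value. AL136295.5 is annotated in GENCODE release 29 as a read-through transcript on the same strand. It covers 1838 exonic bases of IRF9, as many as the longest IRF9 transcript has, and 1732 exonic bases of RNF31, the gene upstream, which encodes a subunit of the linear ubiquitin ligase. AL136295.5 had 1.61 and 28.0 CPM in untreated lots 1 and 2 and 9.35 and 42.7 CPM in PMA lots 1 and 2, so it was high in lot 2 of both groups. RNF31 went the other way, with 15.3 and 1.27 CPM without PMA and 18.2 and 0.216 CPM with it. IRF9 held 69.9% of the sum of IRF9 and AL136295.5 in untreated lot 1 but 1.15% in untreated lot 2, and 80.2% and 51.6% in the PMA libraries. That sum was 5.36 and 28.3 CPM without PMA and 47.3 and 88.1 CPM with it, and the PMA libraries were still above the untreated ones. Counted as this sum, a choice made after the data had been seen, the log2 fold change was 2.01 ± 0.87 (edgeR adjusted p = 0.223), with ratios of 8.82 in lot 1 and 3.11 in lot 2. The untreated lots then differed 5.29-fold in the opposite direction, with lot 2 the higher. With RNF31 added, the levels were 20.7 and 29.6 CPM without PMA and 65.5 and 88.4 CPM with it. Reads on the exons these entries share cannot be told apart, so the level of IRF9 in each library and its change are uncertain.

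**Figure D2:**
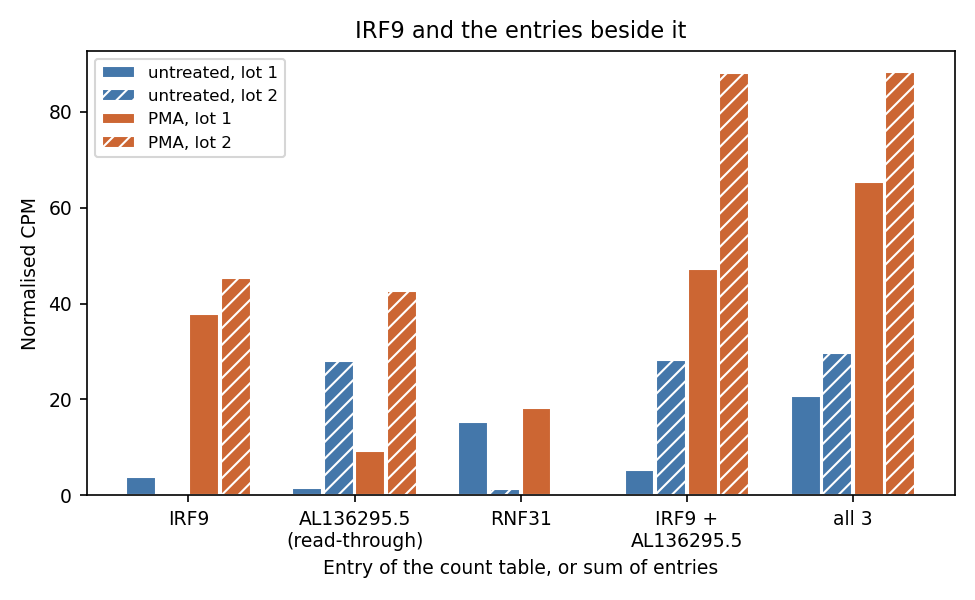
Normalised CPM of IRF9, the read-through entry AL136295.5, RNF31 and their sums, with a bar for each library (blue untreated, orange PMA, hatched for lot 2). RNF31 is high only in the 2 lot 1 libraries and AL136295.5 is highest in the 2 lot 2 libraries, while the sum of all 3 runs from 20.7 CPM in untreated lot 1 to 88.4 CPM in PMA lot 2.

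STAT2, which binds IRF9 in ISGF3, went from 44.1 and 20.6 CPM to 177 and 339 CPM (3.0 ± 0.57), and its adjusted p of 0.0504 missed the threshold, with a range of 1.42e-06 to 0.146 over the alternatives. By count, IRF9 was below STAT2 in every library, with 11.8 and 63.6 STAT2 counts per IRF9 count without PMA and 4.68 and 7.47 with it, though counts are not scaled for length.

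IRF8, the myeloid lineage factor, had 170 and 127 CPM without PMA and 24.1 and 12.4 CPM with it (ENSG00000140968.11). Every PMA value was below every untreated one, and lot 1 was the higher in both groups. The gene fell by 3.02 ± 0.47 on the log2 scale (adjusted p = 0.0357), which is 8.13-fold lower by group means. The level was 7.05-fold lower with PMA in lot 1 and 10.2-fold lower in lot 2. The authors' deposited table gives a log2 ratio of −3.04 and a q-value of 0.00196. The call rested on both PMA libraries, since the adjusted p was 0.0509 without PMA replicate 1 and 0.153 without PMA replicate 2, with log2 fold changes of −3.64 and −2.61.

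Relative to the other myeloid factors the shift in IRF8 was seen in every library. There were 1.15 and 1.05 IRF8 counts per IRF5 count without PMA and 0.178 and 0.0865 with it. PU.1 (SPI1), the ETS factor that recruits IRF8 and IRF4 to composite sites, was at 126 and 164 CPM without PMA and 307 and 342 CPM with it (1.17 ± 0.31, adjusted p = 0.0878). IRF8 therefore had 1.35 and 0.778 counts per SPI1 count without PMA, and 0.0785 and 0.0364 with it.

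IRF4, the closest relative of IRF8 and a factor of lymphoid and dendritic cells, was barely present. It had 56 and 0 counts without PMA and 29 and 67 counts with it, which are 0.885 and 0 CPM against 0.889 and 1.45 CPM (ENSG00000137265.15). A count of 0 in untreated lot 2 allows up to 3 counts, or 0.0695 CPM. Within lot 1 the 2 values were alike, with a ratio of 1.00 and a counting interval of 0.618 to 1.60, whereas in lot 2 the level was at least 20.8-fold higher with PMA. The fitted log2 change of 1.39 ± 1.98 missed the threshold, with an adjusted p of 0.717 and a range of 0.0746 to 0.930 over the alternatives.

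IRF1, an activator that interferon gamma and NF-kB signals induce, had 20.8 and 10.2 CPM without PMA and 22.0 and 27.5 CPM with it (ENSG00000125347.14). Its repressive relative IRF2 had 32.0 and 16.0 CPM without PMA and 38.5 and 45.2 CPM with it (ENSG00000168310.11). In both genes the lowest value was that of untreated lot 2, and the groups did not overlap but nearly touched in lot 1. The log2 fold changes were 0.68 ± 0.50 for IRF1 (adjusted p = 0.464) and 0.80 ± 0.47 for IRF2 (adjusted p = 0.353). For IRF1 the ratio of PMA to untreated was 1.06 in lot 1 and 2.71 in lot 2, and for IRF2 it was 1.21 and 2.82.

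The counts of these 2 genes kept nearly the same proportion. There were 0.650 (lot 1) and 0.634 (lot 2) IRF1 counts per IRF2 count without PMA, and 0.572 and 0.608 with it. The counting intervals of these ratios all overlapped, from 0.606 to 0.697 in untreated lot 1 to 0.521 to 0.627 in PMA lot 1. IRF1 overlaps 2 entries on the opposite strand. IRF1-AS1 had 1.02 to 2.41 CPM in the 4 libraries (adjusted p = 0.822), and 22.0% of the exonic bases of IRF1 lie within its exons in GENCODE release 29. AC116366.3, a read-through entry with 6.01% of the IRF1 exonic bases, had 9.17 and 21.9 CPM without PMA and 0 and 10.0 CPM with it.

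**Figure D3:**
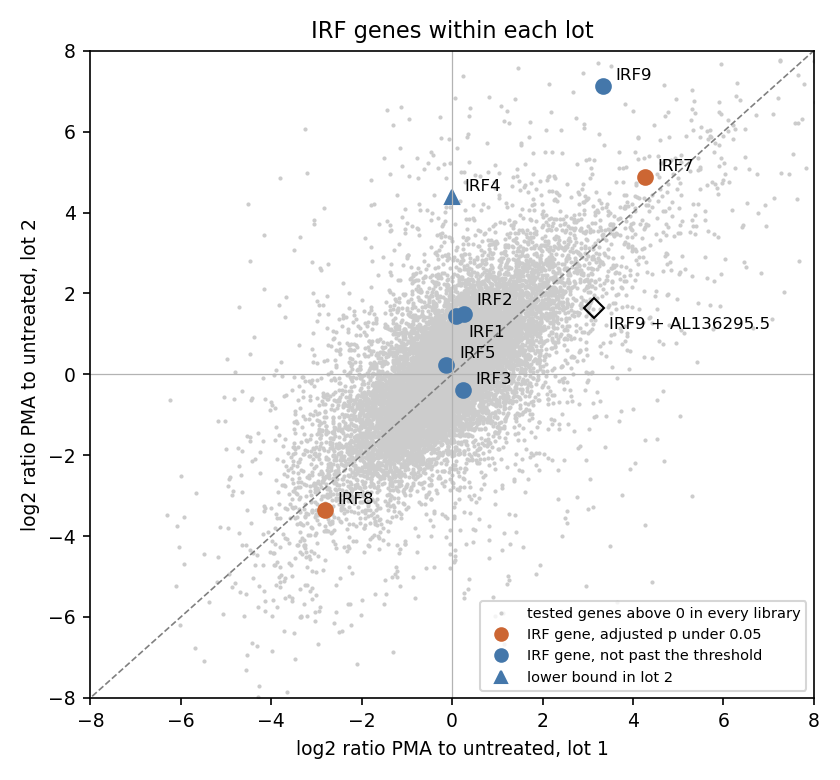
The log2 ratio of PMA to untreated CPM within lot 1 (x axis) and lot 2 (y axis) for the 8 IRF genes, over grey points for the tested genes above 0 in every library. Orange points passed the test, the triangle for IRF4 is a lower bound in lot 2, and the open diamond is IRF9 summed with AL136295.5. IRF7 and IRF8 lie near the dashed line of equal change, IRF9 lies above it with ratios of 10.1 and 140, and the diamond lies below it with 8.82 and 3.11.

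Levels of different genes were compared per kilobase of the longest GENCODE release 29 transcript. On that scale the 8 genes summed to 141 and 130 CPM per kb without PMA and to 145 and 210 CPM per kb with it. IRF8 was the most abundant IRF transcript in both untreated libraries, with 39.8% and 32.2% of the sum, and IRF5 came next with 35.1% and 31.2%. Those 2 genes stood at 56.0 and 49.4 CPM per kb in untreated lot 1 and at 42.0 and 40.7 in untreated lot 2. With PMA the order changed: IRF5 led in lot 1 with 31.3%, followed by IRF7 with 23.2%, and IRF7 led in lot 2 with 38.3%, followed by IRF5 with 22.9%. IRF8 held 5.49% and 1.96% of the sum with PMA, and IRF9 held 14.3% and 11.8% against 1.45% and 0.135% without it. IRF3 varied more between the untreated lots, 9.66% and 27.5%, than between the groups. IRF4 was lowest in every library, at 0.129% or less. With the median transcript length in place of the longest this order held only in part. IRF8 then held 44.3% and 36.1% in the untreated libraries against 24.7% and 22.1% for IRF5, and IRF3 passed IRF5 in untreated lot 2 with 31.2%. In PMA lot 1 IRF7 held 11.6%, behind IRF5, IRF2, IRF9 and IRF3, and in PMA lot 2 IRF7 and IRF5 each held 21.0%. The mean share of IRF7 with PMA was 16.3% on that scale in place of 30.7%.

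**Figure D4:**
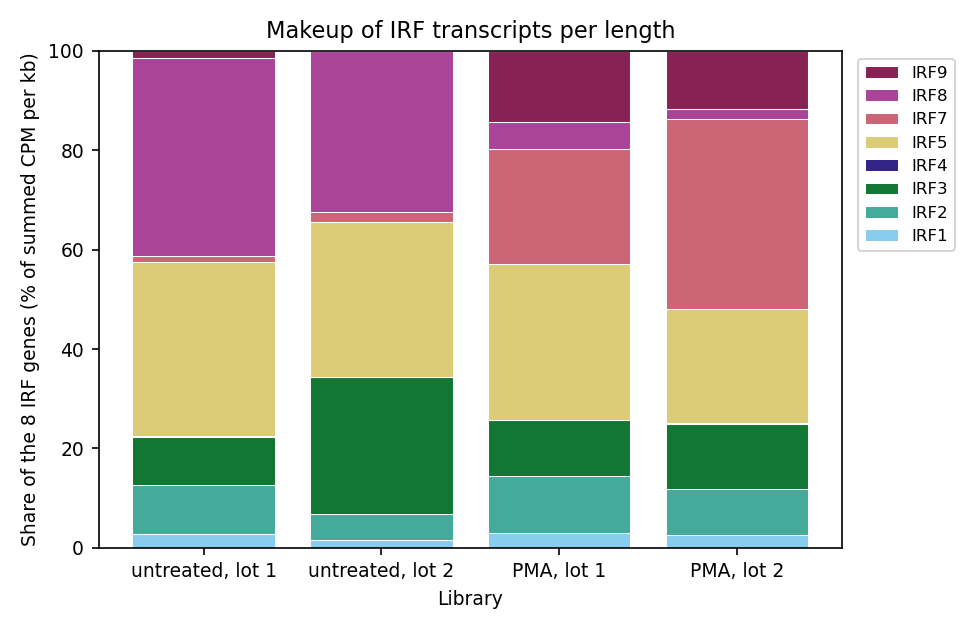
Stacked shares of the 8 IRF genes in their summed CPM per kb of the longest annotated transcript, with a bar for each library. IRF8 takes 32.2% to 39.8% of the untreated bars and 1.96% to 5.49% of the PMA bars, where IRF7 takes 23.2% to 38.3%.

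For the members at 10 CPM or more in any library, the genes with the most similar profile over the 4 libraries were found by the root mean square difference of log2 CPM (with 0.5 CPM added), centred on each gene's own mean. With 4 libraries many genes are alike by this measure: 134 genes were within 0.1 of IRF5, 45 of IRF1, 39 of IRF2, 20 of IRF3, 2 of IRF8 and 0 of IRF7 and IRF9. The closest to IRF7 was the nuclear receptor gene NR4A1 (0.191), with 7.81 and 13.2 CPM without PMA and 169 and 283 CPM with it, and then ALDH1A2 (0.214). The closest to IRF8 were SERPINB10 (0.0736) and the mitotic kinase gene MELK (0.0983). For IRF9 they were the lysosomal sulfatase gene IDS (0.155) and MROH7-TTC4 (0.199). For IRF1 they were AC108010.1 (0.0126) and the NKG2D ligand gene MICB (0.0200), and for IRF2 they were RERE (0.0240) and WASF4P (0.0352). For IRF3 they were RAB24 (0.0506) and AC010422.8 (0.0550), and for IRF5 MORF4L2 (0.0142) and BRD7 (0.0151).

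The genes around the family were read from 10 lists with 171 different genes, of which 170 were matched in the table and 126 were tested. Of these 126, 28 were higher (background 4.29% of tested genes) and 1 was lower (background 2.02%) with PMA. Their median log2 fold change was 1.50. At an unadjusted p under 0.05 the lists held 68 higher and 8 lower genes, where 4445 of all 16451 tested genes were under that p in either direction. DESeq2 called 66 genes of the lists higher (background 13.2%) and 7 lower (background 10.4%). The number of genes called in single lists moved with the library that was left out, and so did the number called over all genes. Among ligands, 18 of 21 interferon genes were at 0 in all 4 libraries, and the only tested one, IFNB1, stayed at 0.556 CPM or less (adjusted p = 0.926). IFNA2 had 32 counts in PMA lot 2 (0.692 CPM) and IFNA8 had 10 in PMA lot 1 (0.307 CPM). Each was at 0 elsewhere, and neither was tested. Of 11 tested interferon receptors, JAK kinases and STATs, 3 were higher (background 4.29%) and 0 lower (background 2.02%), with a median of 1.50. They included both chains of the interferon gamma receptor, IFNGR1 (2.46 ± 0.42, adjusted p = 0.0398) and IFNGR2 (2.16 ± 0.34, adjusted p = 0.0368). The adjusted p was 0.126 and 0.110 for IFNGR1 and 0.140 and 0.238 for IFNGR2 when PMA replicates 1 and 2 were left out. The receptor-bound kinases JAK1 (1.50 ± 0.38, adjusted p = 0.0807) and TYK2 (0.93 ± 0.32, adjusted p = 0.142) did not pass.

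Of 19 tested kinases and adaptors that activate IRF3, IRF5 and IRF7, 2 were higher (background 4.29% of tested genes) and 0 lower (background 2.02%). Their median was 0.63. The RNA helicase sensor RIGI rose from 7.92 and 4.01 CPM to 102 and 138 CPM (4.33 ± 0.52, adjusted p = 0.0253). The Toll-like receptor adaptor MYD88 rose by 2.54 ± 0.43 (adjusted p = 0.0396, but 0.0650 and 0.108 when PMA replicates 1 and 2 were left out and 0.0555 with upper-quartile factors). TBK1, the kinase that phosphorylates IRF3 and IRF7, had 19.8 and 15.9 CPM without PMA and 31.6 and 23.7 CPM with it (adjusted p = 0.394). IRAK1 had the highest CPM of this list without PMA, at 553 and 628 CPM against 552 and 446 CPM (adjusted p = 0.661).

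Of 15 tested DNA-binding partners and corepressors, 4 were higher (background 4.29% of tested genes) and 0 lower (background 2.02%), with a median of 1.17. The AP-1 type factor BATF2 rose from 0.285 and 0.811 CPM to 18.8 and 25.2 CPM (5.34 ± 0.77, adjusted p = 0.0310), and the repressor PRDM1 rose from 1.23 and 0.486 CPM to 73.6 and 51.7 CPM (6.17 ± 0.68, adjusted p = 0.0236). The AP-1 subunit JUN rose by 4.02 ± 0.72 (adjusted p = 0.0440, but 0.0506 without PMA replicate 2 and 0.0553 with upper-quartile factors). IRF2BPL, a relative of the IRF2 corepressors, rose by 2.74 ± 0.42 (adjusted p = 0.0348, but 0.113 and 0.105 when PMA replicates 1 and 2 were left out). The IRF2 corepressor IRF2BP2 was at 712 and 268 CPM without PMA and 301 and 395 CPM with it (adjusted p = 0.615). BATF3, which works with IRF8 in dendritic cells, was at 15.5 and 54.7 CPM and at 7.39 and 15.2 CPM (adjusted p = 0.250, and 0.0481 without untreated replicate 1).

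Of 13 tested negative regulators of IRF proteins 0 passed edgeR's test (background 6.30% of tested genes). At an unadjusted p under 0.05, 4 were higher and 1 was lower, against 4445 of all 16451 tested genes in either direction. DESeq2 called 4 of them higher (background 13.2%), and limma-voom called 3 higher, where it called 1149 genes higher in all. The 2 with the smallest p were USP18, which restrains type I interferon signalling (2.57 ± 0.59, adjusted p = 0.0682), and the deubiquitinase CYLD (2.16 ± 0.52, adjusted p = 0.0740). TRIM28 was the most abundant, at 659 and 962 CPM against 346 and 370 CPM (adjusted p = 0.0926).

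Of 23 tested targets of ISGF3, 10 were higher (background 4.29% of tested genes) and 0 lower (background 2.02%), with a median log2 fold change of 5.04. In 22 of 23 the groups did not overlap and the PMA libraries lay above, against 31.0% of all tested genes. OAS3, an activator of RNase L, rose from 14.1 and 19.3 CPM to 607 and 784 CPM (5.38 ± 0.40, adjusted p = 0.0159), and the antiviral restriction factor SAMD9 rose from 7.24 and 7.83 CPM to 141 and 144 CPM (4.24 ± 0.35, adjusted p = 0.0177). IFIT1, a sensor of viral RNA caps, rose by 6.60 ± 0.90 (adjusted p = 0.0286), IFIT3 by 5.66 ± 0.93 and OAS2 by 6.61 ± 0.96. IFI44, at 0 without PMA, was at least 83.8-fold higher when each untreated library was set to 3 counts (adjusted p = 0.0341, but 0.0616 under the lot block). IFI6 was the most abundant target with PMA, at 3421 and 5663 CPM against 18.3 and 130 CPM (adjusted p = 0.0487, but 0.0514 with RLE and 0.0572 with upper-quartile factors).

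The untreated lots differed in these targets, and not in the direction of the IRF9 entry. In untreated cells 9 of 23 targets were over 2-fold higher in lot 2 and 3 were over 2-fold higher in lot 1 (on log2 CPM with 0.5 added), against 11.7% and 18.1% of all tested genes. IFIT1 was at 0.680 and 2.85 CPM, IFIT3 at 1.93 and 8.45 CPM, OAS2 at 0.980 and 4.59 CPM and IFI6 at 18.3 and 130 CPM in untreated lots 1 and 2, whereas IRF9 was at 3.75 and 0.324 CPM. The sum of IRF9 and AL136295.5 was higher in lot 2, as was IRF7, while STAT2 was higher in lot 1. With PMA, 6 of 23 targets were over 2-fold higher in lot 2 and 0 in lot 1, against 6.87% and 6.52% of all tested genes.

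Among 22 tested IRF1 targets 4 were higher (background 4.29% of tested genes) and 0 lower (background 2.02%), with a median of 1.50. Under the lot block 2 were higher (background 3.59%). At an unadjusted p under 0.05, 11 were higher and 1, CIITA, was lower, against 4445 of all 16451 tested genes in either direction. The MHC class I light chain B2M rose from 535 and 436 CPM to 2476 and 3114 CPM (2.53 ± 0.31, adjusted p = 0.0257). The chemokine CXCL10, at 0 without PMA, was at least 104-fold higher at 4.69 and 7.43 CPM (adjusted p = 0.0311, but 0.0549 under the lot block). CXCL11 was at least 41.8-fold higher at 2.48 and 2.40 CPM (adjusted p = 0.0470, but 0.0892 under the lot block, 0.106 and 0.115 when PMA replicates 1 and 2 were left out, and 0.0506 with upper-quartile factors).

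Among 14 tested genes listed as IRF8 targets in myeloid cells, 3 were higher (background 4.29%) and 0 lower (background 2.02%), with a median of 0.83. They included the NADPH oxidase subunit CYBB (5.95 ± 0.65, adjusted p = 0.0232) and the protease cathepsin S, CTSS (3.24 ± 0.36, adjusted p = 0.0236). At an unadjusted p under 0.05, against 4445 of all 16451 tested genes in either direction, 5 were higher and 3 lower. The lower ones were CIITA, from 22.15 and 11.33 CPM to 0.307 and 0 CPM (adjusted p = 0.0717), BLNK (−4.75 ± 1.81, adjusted p = 0.178) and FAS (−2.84 ± 0.72, adjusted p = 0.0810). CYBB and CIITA are in the IRF1 list as well. The groups did not overlap in 7 of the 14 with higher PMA levels (background 31.0% of tested genes) and in 6 with lower ones (background 29.4%). The most abundant, the protease inhibitor gene CST3, had 324 and 368 CPM without PMA and 511 and 615 CPM with it (adjusted p = 0.207).

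Of 11 genes listed as IRF4 targets 4 were tested, and 6 were at 0 in all libraries. PRDM1 was higher (background 4.29% of tested genes) and the transcription factor MYC lower (background 2.02%). MYC fell by 2.99 ± 0.32 on the log2 scale (adjusted p = 0.0224). Its call rested on both PMA libraries, with log2 fold changes of −3.17 and −2.86 when PMA replicates 1 and 2 were left out. Of 8 tested genes listed as IRF5 targets, 3 were higher (background 4.29%) and 0 lower (background 2.02%), with a median of 4.18. At an unadjusted p under 0.05, against 4445 of all 16451 tested genes in either direction, 4 were higher and 1 was lower. The lower one, IL12A, went from 0.648 and 6.18 CPM to 0 in both PMA libraries (adjusted p = 0.0807). The interleukin gene IL1B rose from 0.949 and 3.29 CPM to 757 and 593 CPM (8.32 ± 0.84, adjusted p = 0.0222). The chemokine CCL3 rose to 109 and 180 CPM (adjusted p = 0.0281), and CCL4, at 0 without PMA, was at least 632-fold higher (adjusted p = 0.0224).

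**Figure D5:**
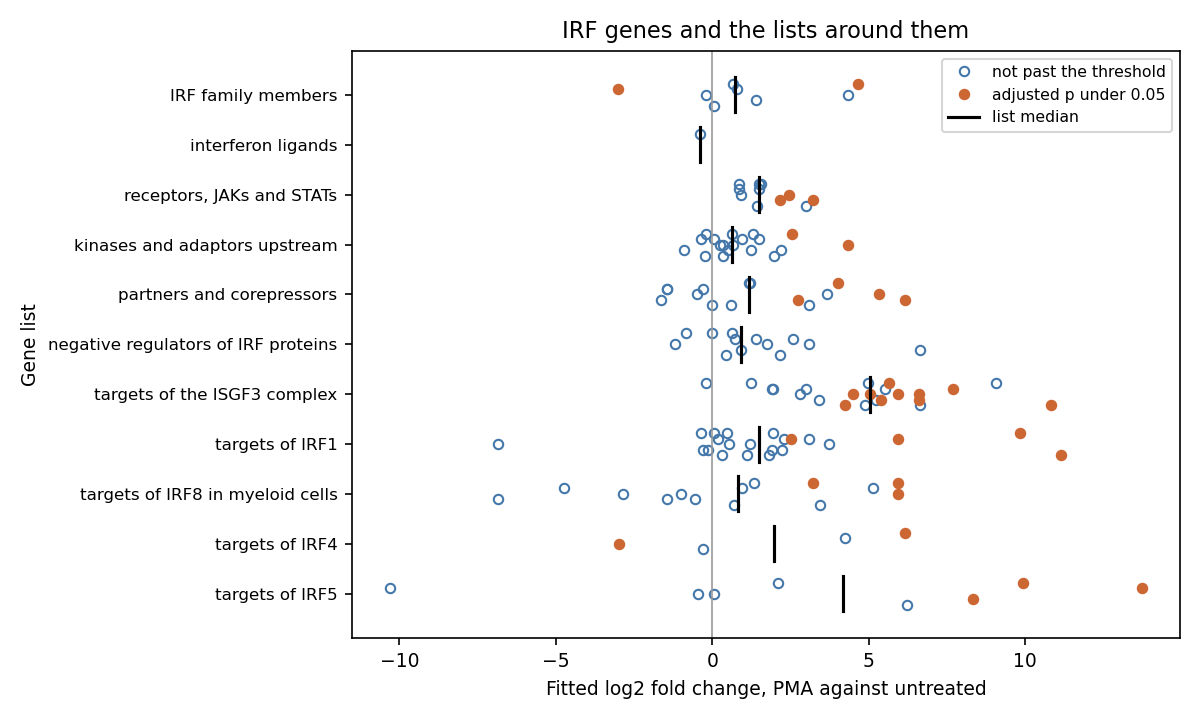
Fitted log2 fold change of PMA against untreated (x axis) for the tested genes of the IRF family and of the 10 lists around it, with filled orange points for genes past the threshold and a black line at each list's median. The ISGF3 targets have a median of 5.04 and the IRF family one of 0.74. Fitted values of genes at 0 in a group rest on a prior count and are not bounds.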

How the data were processed

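Poly(A) RNA of 4 U937 libraries was sequenced on an Ion Proton instrument, per the labels' protocols and the series' design text. HISAT2 2.1.0 and StringTie 2.1.1 are listed, without roles, per the submitters' processing notes. Not given in the sources used here: genome build, annotation, counting program, strand setting. The authors deposited estimated counts per gene, all whole numbers, so rounding changed none. Their second table holds a signal per gene (the count times a factor per library), log2 ratios and levels, and p-values and q-values, per the file headers, of which only the log2 ratio and q-value are quoted. Groups and lots were read from the titles.

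Counts were tested with edgeR 4.0.16 in R 4.3.3 (TMM, filterByExpr, quasi-likelihood test, adjusted p under 0.05) on all 4 libraries without a block. A count of 0 allows up to 3 counts. Alternatives were RLE and upper-quartile factors, no filter, 5 CPM in 2 libraries, DESeq2 1.42.0, limma-voom (3.58.1), the lot as a block, library sizes after removal of the 20 top genes and of mitochondrial genes, and leaving out each library. IRF9 summed with AL136295.5 was added after the data had been seen. The lot pairs the libraries by their titles, and deviations from the group means within a lot correlated at 0.216 across genes. No label states separate cultures for the lots, and the p-values then reflect only how these 4 libraries vary, which could be technical variation. The script was tested on simulated data. Transcript lengths and overlaps came from GENCODE release 29 and promoters from RefSeq. Protein sequences were not used here.

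The members and lists were chosen with earlier results of these data known. Named genes are the 8 members, up to 6 called genes per list by smallest p (the 2 with the smallest p where none was called), the most abundant of each list, 8 genes fixed by name and the neighbours of members. Some genes that the rule names are not reported here.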

Additional observations from a re-analysis of the deposited data

How the results depend on the processing

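The coefficient of variation between replicates was 0.626 by edgeR, which limits what 2 libraries per group can show. IRF7 was called under all 12 alternatives and IRF8 under 10 of 12. Over all genes, 705 were higher and 332 lower. DESeq2 gave 2127 and 1684, limma-voom 1149 and 636, and the filter of 5 CPM 721 lower. Leaving out a library gave 424 to 1830 higher and 79 to 1085 lower genes. Among the 8 members, 2 were higher with DESeq2 and with limma-voom, and leaving out a library gave 1 to 2 higher and 0 to 1 lower. Over the pathway lists, the 28 higher and 1 lower became 66 and 7 with DESeq2, 46 higher with limma-voom, 43 and 3 with the filter of 5 CPM, and 22 to 54 higher and 1 to 5 lower when a library was left out. The filter of 5 CPM removed IRF4, so it gave no value there.

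IRF9 passed with DESeq2 (9.47e-05) and limma-voom (0.0340), and its adjusted p ranged from 0.0127 to 0.121 when a library was left out. For IRF8 that range was 0.0275 to 0.153. The sign of IRF5 turned with upper-quartile factors (adjusted p = 0.848), the filter of 5 CPM (0.998), the reduced library sizes (0.984) and without untreated replicate 2 (0.892), and its adjusted p was 0.755 to 0.995 when a library was left out. That of IRF3 turned without untreated replicate 2 (0.394) and without PMA replicate 1 (0.982), within a range of 0.242 to 0.982. IFNB1 turned with limma-voom (0.598), with the lot as a block (0.785) and without untreated replicate 2 (0.359), within 0.359 to 0.993 when a library was left out, and IRF2BP2 turned without untreated replicate 1 (0.515), within 0.126 to 0.879. With the lot as a block, the paired fit, the adjusted p was 0.0336 for IRF7, 0.0351 for IRF8 and 0.0897 for IRF9, and no member's call changed. The cause of these changes was not tested. With median transcript lengths the mean share was 17.1% for IRF3 with PMA, 23.4% for IRF5 without it, and 0.703% and 16.3% for IRF7 without and with PMA.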
